A study of Mus musculus with 8 samples.

Results

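The organic ion and drug transporters described here were all genes whose symbol on the array platform belonged to the Slc22a, Slco, Slc47a, Abcb, Abcc or Abcg families, except the prostaglandin carrier gene Slco2a1. With only probe sets that named 1 gene, and the probe set of highest mean over the 8 arrays for each gene, 64 of the 19936 genes tested were members: 23 Slc22a, 14 Slco, 2 Slc47a, 9 Abcb, 10 Abcc and 6 Abcg genes. Slc22a3 and Slc22a28 were not analysed here as single genes. Whole-kidney RNA of 8 female mice of a mixed C57BL/6 - SV127 background was read on Affymetrix arrays, a separate mouse on each. The 4 mutant-labelled arrays came from mice with the Pax8-rtTA and LC-1 transgenes and floxed Vhl, in which doxycycline switches on Cre recombinase in Pax8-expressing tubule epithelium and not in the other cells of the kidney. The 4 control-labelled arrays came from littermates whose alleles the labels do not list. From the age of 3 weeks both groups had drinking water with 5% sucrose and doxycycline (0.2 mg/ml) for 2 weeks and plain water for 1 week, and kidneys were taken at 6 weeks.

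These proteins move drugs, toxins, urate, steroid conjugates and other charged metabolites across epithelia. In the proximal tubule, Slc22a carriers of the basolateral membrane take organic anions and cations up from the blood, and Slc22a, Slc47a and ABC proteins of the apical membrane return them to the urine or, as with urate, reclaim them. The Slco proteins (organic anion transporting polypeptides) carry bulky anions such as bile acids, thyroid hormones and steroid conjugates, and the ABC proteins use ATP to export drugs, conjugates, phospholipids and sterols.

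The targeted gene and a pair of genes induced by hypoxia-inducible factor (HIF) were read as a check of the labels, and ran against them. Vhl read 8.34 ± 0.0909 in the mutant-labelled arrays and 8.05 ± 0.118 in the control-labelled arrays (SD, n = 4 each; log2 scale), and which part of the transcript its probe set reads is not given in the sources used here. The Vhl difference passed the limma test (adjusted p = 0.0387), but not with the replicate block (0.0558) or without any one of mutant arrays 2, 3 and 4, or control array 1, 2 or 3 (0.0785 to 0.114). The HIF targets Egln3 and Car9 were 7.81-fold and 7.35-fold lower in the mutant-labelled arrays. Every direction below is therefore one between labelled groups and cannot be read as an effect of losing Vhl. The deposited log2 values ran from 1.92 to 14.66 and the array medians from 7.55 to 7.58. The number of arrays limits the precision: standard errors of the log2 differences had a median of 0.0776 over the 64 members and 0.0718 over all genes. Because probe sets bind with different strength, levels are compared only within a gene. "Mutant array 1" and the like mean the array with that label and number.

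Among the 64 members, 10 were higher and 2 lower in the mutant-labelled arrays (limma, adjusted p under 0.05 over all 19936 genes), and 52 did not pass. This is 18.8% of the members, beside 7.23% of all genes tested; 2.59% of all genes were called higher and 4.64% lower. The median log2 difference of the members was 0.10, beside 0.03 over all genes, and 45 members had a positive difference (70.3%, beside 58.1% of all genes) and 19 a negative one. In 16 members (25%, beside 14.8% of all genes) the values of the groups did not overlap: the mutant-labelled arrays were above in 14 of them (6.57% of all genes) and below in 2 (8.20% of all genes). Most calls lay in the Slc22a family. Of the 23 Slc22a genes 8 rose and 1 fell (39.1% called), while the other families had 0 or 1 call each.

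**Figure D1:**
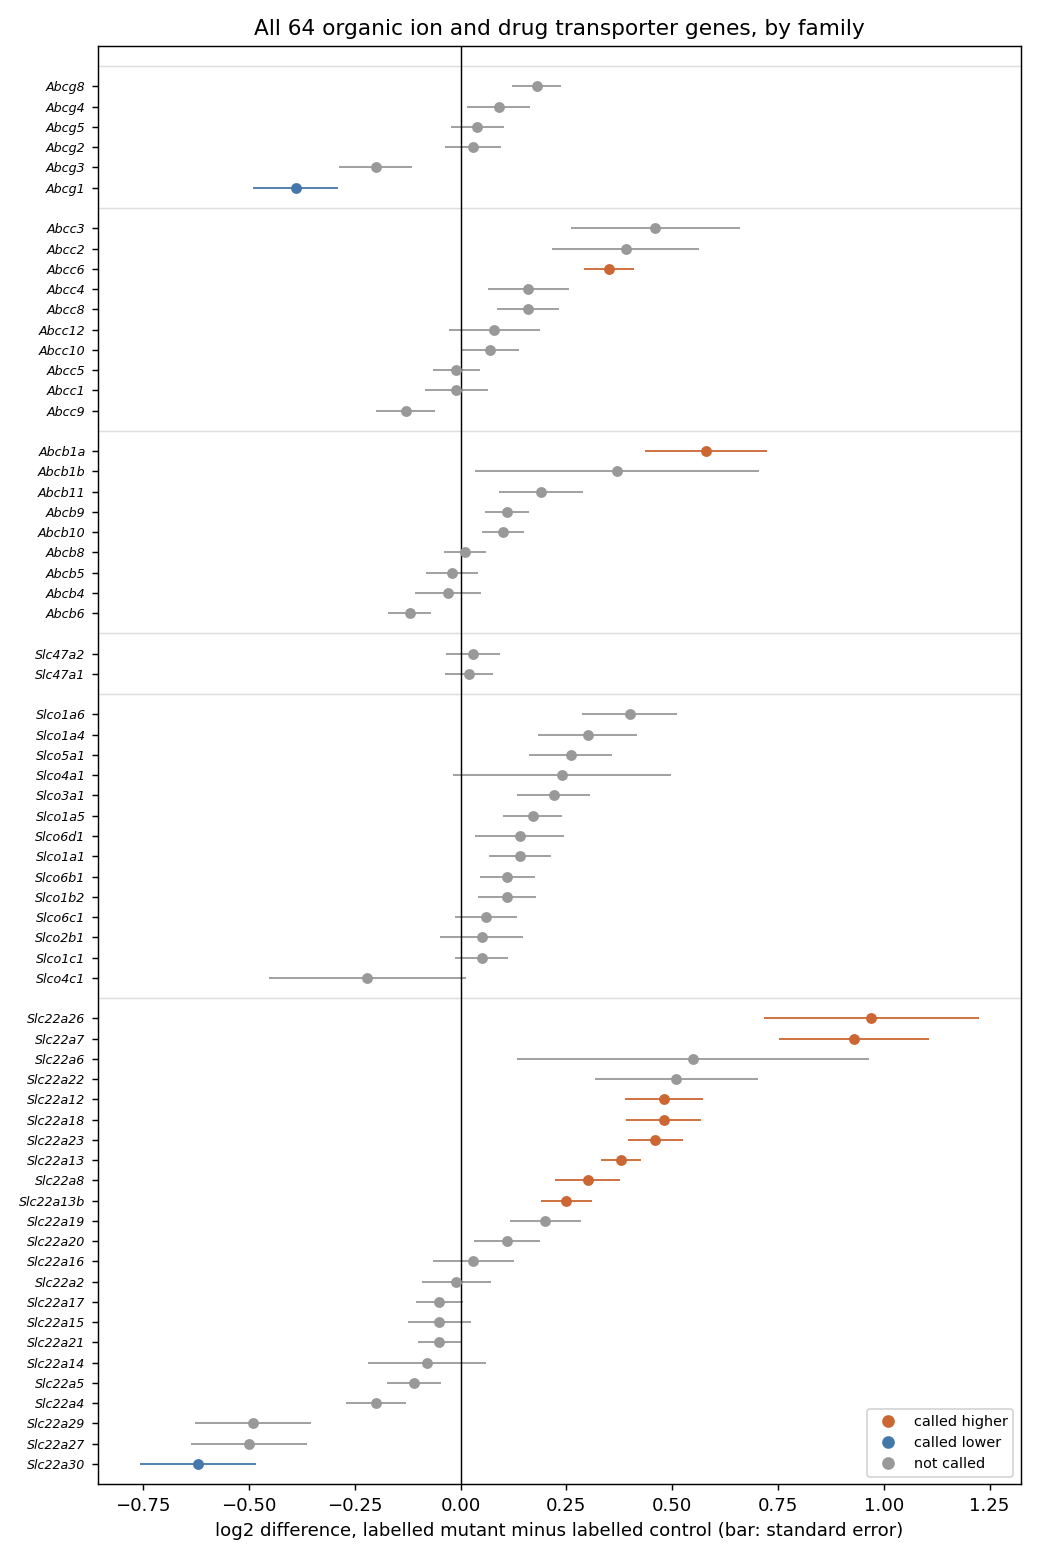
Log2 difference of each of the 64 transporter genes, labelled mutant minus labelled control (x axis; bars are standard errors of the limma fit), ordered within the 6 families. The coloured points are the 10 genes called higher and the 2 called lower, and the Slc22a family spans the widest range, from -0.62 for Slc22a30 to 0.97 for Slc22a26.

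The organic anion transporter genes of the Slc22a family moved most. Of the 12 measured genes of this role list, 5 rose, 1 fell and 6 did not pass, beside 7.23% of all genes called. Their median log2 difference was 0.34, beside 0.03 over all genes. Slc22a7, which encodes the carrier OAT2, read 11.04, 11.22, 10.97 and 10.79 on the 4 mutant-labelled arrays and 10.35, 10.39, 10.04 and 9.51 on the 4 control-labelled arrays. The groups did not overlap, and control array 4 was the lowest of all. The gene was 1.91-fold higher in the mutant-labelled arrays (log2 difference 0.93, standard error 0.177, limma adjusted p = 0.0116; by exact permutation, two-sided, p = 0.0286, the lowest value possible with 4 against 4 arrays). Its call ended without mutant arrays 1 and 2 together (limma adjusted p = 0.0913, log2 difference 0.81).

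The urate exchanger genes of the apical membrane were higher as well. Slc22a12 encodes URAT1, which takes urate back from the tubule fluid. It read 11.56, 11.63, 11.77 and 11.63 on the mutant-labelled arrays and 11.36, 11.30, 11.06 and 10.96 on the control-labelled ones, again without overlap (1.39-fold higher, log2 difference 0.48, limma adjusted p = 0.0122). Without mutant arrays 3 and 4 together the adjusted p was 0.0611. Slc22a13 encodes OAT10, which exchanges urate and nicotinate. It was the most even of the called genes: the mutant-labelled arrays lay between 12.12 and 12.17 and the control-labelled arrays between 11.72 and 11.82. It rose 1.30-fold (12.14 ± 0.0206 against 11.76 ± 0.0445, SD, n = 4 each; limma adjusted p = 0.00149). Slc22a13b, a transcribed pseudogene related to Slc22a13 in the gene table, was 1.19-fold higher (8.51 ± 0.104 against 8.26 ± 0.0347, SD, n = 4 each; limma adjusted p = 0.0331). Sequence shared with Slc22a13 makes its reading uncertain. Its call ended without any 1 of the 4 control arrays or of mutant arrays 1 and 2 (limma adjusted p from 0.0589 to 0.0911). Slc22a14, which lies next to Slc22a13 on chromosome 9, read 6.20 ± 0.331 against 6.28 ± 0.0695 (SD, n = 4 each), not past the threshold.

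OAT1 and OAT3 are the basolateral uptake pair for organic anions. Slc22a8, the OAT3 gene, read 12.93, 13.15, 13.16 and 13.02 on the mutant-labelled arrays and 12.81, 12.89, 12.75 and 12.60 on the control-labelled ones. The groups were close but did not overlap, and the gene rose 1.23-fold (log2 difference 0.30, limma adjusted p = 0.0429). Leaving out any one of mutant arrays 2, 3 and 4 and control arrays 1, 3 and 4 ended the call (limma, adjusted p between 0.0699 and 0.121). Slc22a6, the OAT1 gene and its chromosomal neighbour, read 11.93, 12.16, 12.33 and 10.58 on the mutant-labelled arrays and 11.89, 11.44, 11.23 and 10.23 on the control-labelled ones. Array 4 was the lowest in both groups and the groups overlapped widely. The residual SD of Slc22a6, 0.751, was the largest of the 64 members, and its log2 difference of 0.55 had a 95% interval from -0.38 to 1.48 (limma adjusted p = 0.474). Between same-numbered arrays the mutant array was higher in all 4 pairs, by 0.04, 0.72, 1.10 and 0.34, and the adjusted p with the replicate number as a block was 0.0910. The log2 difference was 0.23 without control array 4 and 0.94 without mutant array 4. Whether the 2 genes differ in their response was not tested.

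**Figure D2:**
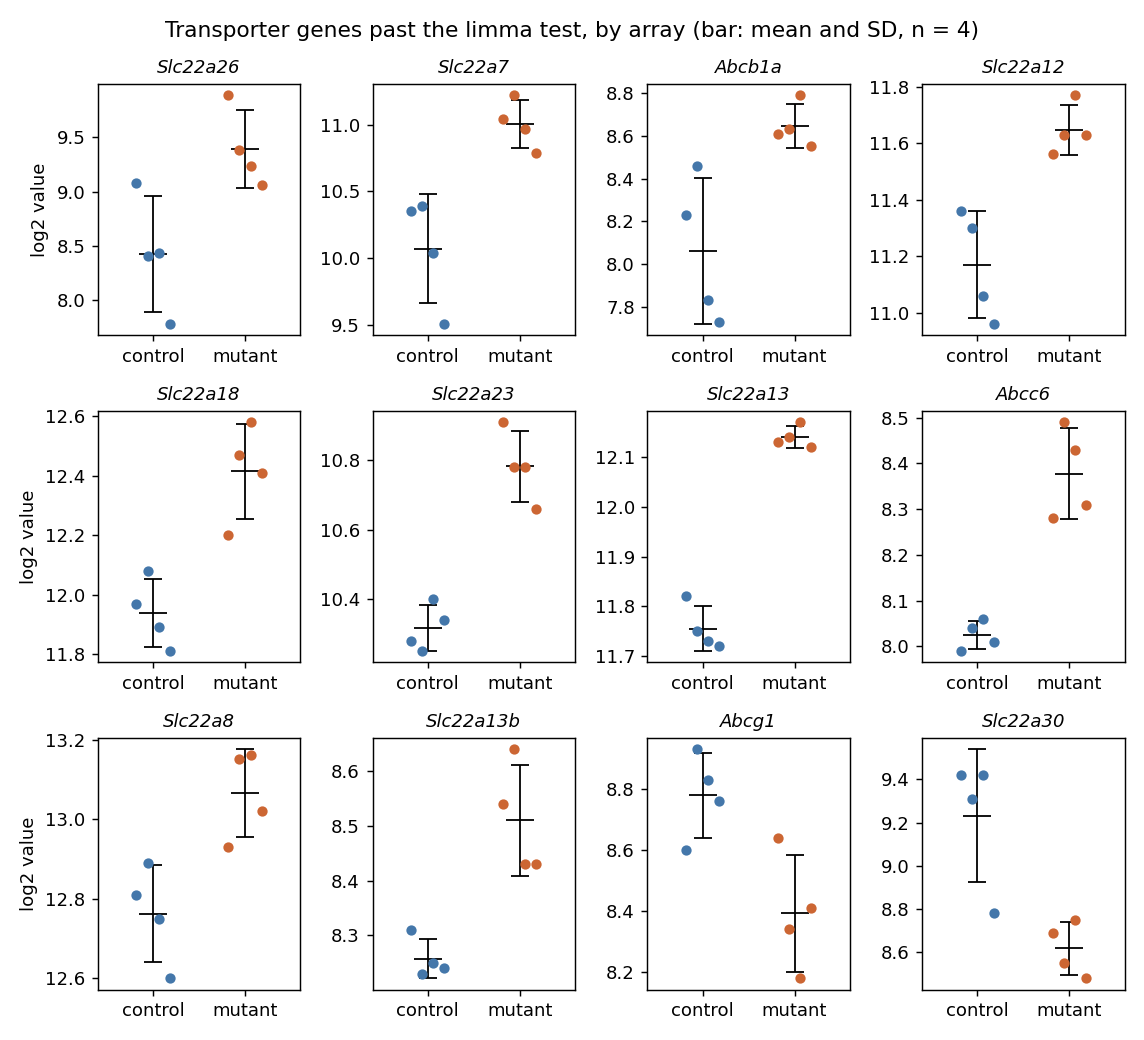
Log2 values of the 12 called transporter genes on each array (points, in the order of replicate numbers 1 to 4 from left to right), for control-labelled and mutant-labelled arrays, with the mean and SD of each group (n = 4); each panel has its own log2 axis, which does not start at 0. The mutant-labelled arrays lie above the control-labelled arrays without overlap in 9 of the 10 genes called higher, the exception being Slc22a26. Over all genes tested 6.57% lie so. The panels show genes picked by the group test, so this separation is no further support for them.

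Slc22a19, Slc22a26, Slc22a27, Slc22a28, Slc22a29, Slc22a30, Slc22a8 and Slc22a6 follow each other in this order on chromosome 19 with no other protein-coding gene between them (RefSeq gene order, GRCm38.p6). This run holds carrier genes that arose by duplication in rodents, and its members had differences of both signs. Slc22a26 read 9.89, 9.38, 9.24 and 9.06 on the mutant-labelled arrays and 9.08, 8.41, 8.43 and 7.78 on the control-labelled ones. It was 1.96-fold higher in the mutant-labelled arrays (log2 difference 0.97, standard error 0.254, limma adjusted p = 0.0486), although control array 1 lay just above mutant array 4. Its difference was the largest of all members. Within each number the mutant array was higher, by 0.80, 0.98, 0.81 and 1.28. The call ended without any 1 of the 4 mutant arrays or of control arrays 2, 3 and 4 (limma adjusted p from 0.0532 to 0.115). On all 8 arrays it ended with array weights (0.0934, log2 difference 0.78) and with limma's trended and robust variance (0.105).

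Slc22a27, Slc22a29 and Slc22a30, consecutive among the measured genes of the run, had negative differences, and Slc22a30 passed the test. Slc22a30 read 8.69, 8.55, 8.75 and 8.48 on the mutant-labelled arrays and 9.42, 9.31, 9.42 and 8.78 on the control-labelled ones. It fell 1.53-fold without overlap (log2 difference -0.62, limma adjusted p = 0.0245), with control array 4 just above the highest mutant array. Its call was lost when mutant array 2 or 4, or control array 1, 2 or 3, was left out (limma, adjusted p between 0.0641 and 0.0767). Slc22a27 read 7.48 ± 0.214 against 7.98 ± 0.256 and Slc22a29 8.74 ± 0.295 against 9.24 ± 0.156 (SD, n = 4 each). Neither passed the test over all 8 arrays (limma adjusted p = 0.0575 for Slc22a27 and 0.0605 for Slc22a29), and both did without mutant array 2 (0.0287 and 0.0219). They were chosen for naming after their values were seen. A further probe set named Slc22a28, Slc22a29 and Slc22a30 together and so was no member. It read 9.79 ± 0.168 against 10.35 ± 0.279 (SD, n = 4 each; log2 difference -0.57, exact two-sided permutation p = 0.0571). Because these genes are near-copies, signal from each of them can reach the probe sets of the others, and the single-gene values of Slc22a29 and Slc22a30 are uncertain to that extent. At the first gene of the run, Slc22a19 (OAT5) read 12.86 ± 0.0397 against 12.66 ± 0.179 (SD, n = 4 each), not past the threshold (limma adjusted p = 0.204).

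**Figure D3:**
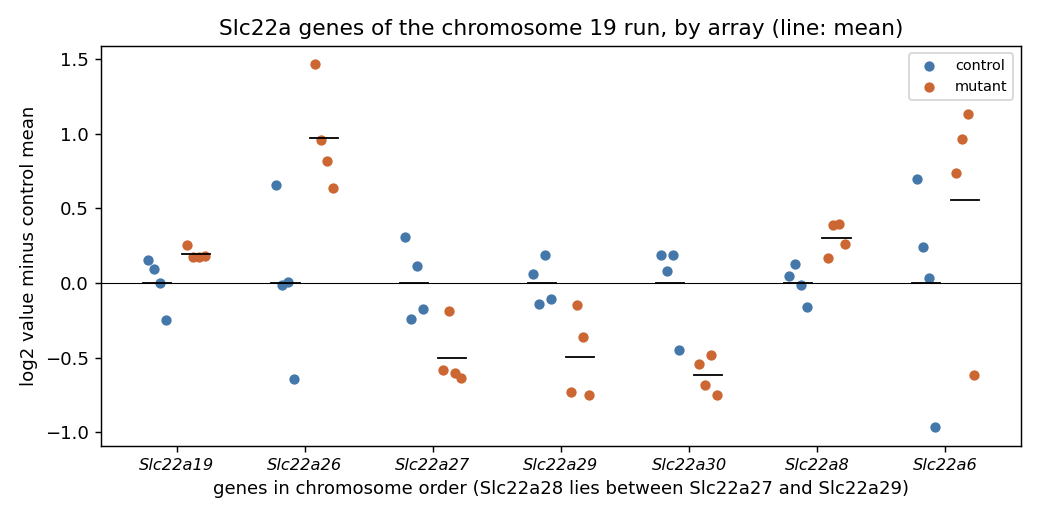
Log2 value minus the mean of the control-labelled arrays (y axis) for the 7 measured Slc22a genes of the chromosome 19 run in chromosome order (x axis; Slc22a28 was not measured alone), each point an array and each line a group mean. Slc22a26 lies above 0 and Slc22a27, Slc22a29 and Slc22a30 below it in the mutant-labelled arrays, and Slc22a6 spreads over both signs in both groups.

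The copies also resemble each other before their transcription starts. The 250 bases upstream of the start are shown for Slc22a30, which fell, for its uncalled neighbour Slc22a29, and for Slc22a26 and Slc22a8, which rose (RefSeq, GRCm38.p6). Of Slc22a28 and Slc22a30, 238 of 244 aligned upstream bases were identical (97.5%), of Slc22a29 and Slc22a30 171 of 207 (82.6%), and of Slc22a28 and Slc22a29 174 of 213 (81.7%). Capitals mark, in Slc22a29 and Slc22a30, the longest stretch of 16 bases that Slc22a28, Slc22a29 and Slc22a30 share exactly. The shared stretch was not found upstream of Slc22a26, Slc22a27 or Slc22a8. Each sequence runs 5′ to 3′ along the gene's strand, at chr19:8218901-8219150 (minus strand) for Slc22a29, chr19:8405106-8405355 (minus) for Slc22a30, chr19:7802668-7802917 (minus) for Slc22a26 and chr19:8592932-8593181 (plus) for Slc22a8.
Slc22a29: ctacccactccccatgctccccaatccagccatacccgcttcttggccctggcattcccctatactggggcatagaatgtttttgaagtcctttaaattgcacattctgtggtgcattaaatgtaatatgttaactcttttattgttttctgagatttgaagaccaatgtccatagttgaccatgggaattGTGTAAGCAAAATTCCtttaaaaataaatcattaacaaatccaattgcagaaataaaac
Slc22a30: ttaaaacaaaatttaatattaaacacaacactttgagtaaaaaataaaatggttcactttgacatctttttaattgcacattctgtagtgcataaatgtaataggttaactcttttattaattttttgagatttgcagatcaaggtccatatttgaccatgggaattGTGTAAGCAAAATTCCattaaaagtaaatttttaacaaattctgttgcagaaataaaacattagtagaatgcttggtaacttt
Slc22a26: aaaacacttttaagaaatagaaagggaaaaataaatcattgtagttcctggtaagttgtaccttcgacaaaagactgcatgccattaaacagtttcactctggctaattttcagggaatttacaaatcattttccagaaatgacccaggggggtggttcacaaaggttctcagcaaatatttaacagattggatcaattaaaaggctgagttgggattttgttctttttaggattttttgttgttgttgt
Slc22a8: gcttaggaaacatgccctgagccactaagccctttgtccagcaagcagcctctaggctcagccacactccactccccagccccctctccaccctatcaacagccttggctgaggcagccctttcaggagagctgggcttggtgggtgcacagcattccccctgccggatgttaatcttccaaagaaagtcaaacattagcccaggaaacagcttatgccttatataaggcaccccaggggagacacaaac

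The members' upstream sequences were searched on both strands for the cores ACGTG and GCGTG to which HIF binds. RefSeq upstream sequences were at hand for 51 of the 64 members and for 8 of the 12 called ones. ACGTG occurred in 5 of 61 member promoters (8.20%, beside 16.6% of all 32851 promoters) and GCGTG in 12 (19.7%, beside 28.2%). Of the 8 promoters of called members, 0 held ACGTG and 0 held GCGTG in this window.

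Slc22a genes of other roles were called higher as well. Slc22a23, a carrier without an established substrate, read 10.91, 10.78, 10.78 and 10.66 on the mutant-labelled arrays and 10.28, 10.25, 10.40 and 10.34 on the control-labelled ones. It rose 1.38-fold without overlap (log2 difference 0.46, limma adjusted p = 0.00279). Slc22a18, an imprinted gene for a cation carrier-like protein, read 12.20, 12.47, 12.58 and 12.41 against 11.97, 12.08, 11.89 and 11.81, again without overlap. It rose 1.39-fold (log2 difference 0.48, limma adjusted p = 0.0106), and its adjusted p was 0.0543 without mutant arrays 3 and 4 together. Slc22a22, the prostaglandin carrier OAT-PG, had a larger difference of 0.51 but a wider spread (10.65, 11.13, 11.42 and 10.81 in mutant-labelled arrays 1 to 4, against 10.73, 10.26, 10.14 and 10.83 in control-labelled arrays 1 to 4; SD 0.341 in each group, n = 4), not past the threshold (limma adjusted p = 0.156).

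Organic cation and carnitine carrier genes were not called. Slc22a2 encodes OCT2, which takes cationic drugs up from the blood, and Slc47a1 encodes MATE1, which passes them on to the urine. Slc22a2 read 12.40 ± 0.132 against 12.41 ± 0.120 (SD, n = 4 each), and the 95% interval of its log2 difference ran from -0.19 to 0.17. Slc47a1 read 12.22 ± 0.0473 against 12.20 ± 0.0830 (SD, n = 4 each), with an interval from -0.11 to 0.15. The other Slc47a gene, Slc47a2, had a log2 difference of 0.03, so neither of the 2 genes of this family was called by limma and 0 had an unadjusted p under 0.05. The carnitine transporter gene Slc22a5 (OCTN2), the ergothioneine carrier gene Slc22a4 (OCTN1) and Slc22a21 lie next to each other on chromosome 11 and had differences of -0.11, -0.20 and -0.05. Slc22a4 came nearest to the threshold (10.49 ± 0.102 against 10.70 ± 0.102, SD, n = 4 each; limma adjusted p = 0.127).

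Of the 14 Slco genes 0 were called by limma, while 5 had an unadjusted p under 0.05 (35.7%, beside 21.8% of all genes). Of their differences 13 were positive (92.9%, beside 58.1% of all genes), with a median of 0.14, beside 0.03 over all genes. In 7 of the 14, Slco1a1 among them, both group means lay below 6.21, the lowest of the arrays' lower quartiles. No reading of background is given, so how much of these low values is signal cannot be told, and their differences are uncertain. Slco1a6, an organic anion carrier gene with clear signal, came nearest. It read 11.62, 11.56, 11.63 and 11.23 on the mutant-labelled arrays and 11.23, 11.21, 11.14 and 10.84 on the control-labelled ones, so that mutant array 4 met control array 1. The log2 difference was 0.40 (1.32-fold, limma adjusted p = 0.0610), and the gene passed with the replicate number as a block (0.00648) and without mutant array 4 (0.0204). Slco3a1 read 11.11 ± 0.145 against 10.88 ± 0.123 and Slco2b1, a carrier of steroid sulphates, 8.98 ± 0.186 against 8.93 ± 0.129 (SD, n = 4 each). Slco4c1, the basolateral carrier of digoxin and thyroid hormone in the proximal tubule, was the only Slco member with a negative difference (-0.22, 95% interval from -0.74 to 0.30), which turned to 0.17 without mutant arrays 1 and 2. It read 7.54 to 8.53 in the mutant-labelled arrays and 7.93 to 8.67 in the control-labelled ones.

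**Figure D4:**
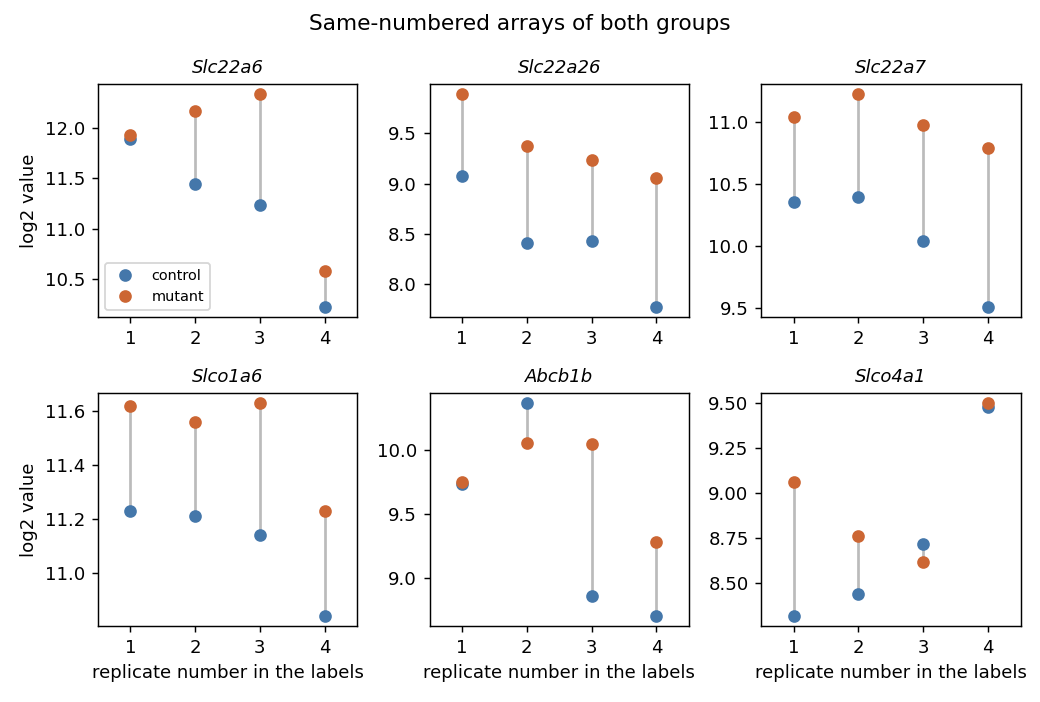
Log2 values (y axis; each panel has its own range, which does not start at 0) of 6 transporter genes against the replicate number in the labels (x axis), with a grey line joining the mutant and control arrays of the same number. For Slc22a6, Slc22a26, Slc22a7, Slco1a6 and Abcb1b array 4 is the lowest in both groups, and for Slco4a1 it is the highest.

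Several transporter genes spread widely within both groups. Array 4 was the lowest of its group in both groups for 11 of the 64 members and array 3 for 8, while array 2 was the highest in both for 11. These ranks were not counted over all genes, so whether they are particular to the transporters cannot be told. Besides Slc22a6, the widest residual spreads were those of Abcb1b, at 0.605, and Slco4a1, a thyroid hormone carrier gene, at 0.461. Slco4a1 read 9.06, 8.76, 8.62 and 9.50 on the mutant-labelled arrays and 8.32, 8.44, 8.72 and 9.48 on the control-labelled ones, and did not pass. The labels do not say what the numbers stand for, and what sets these levels was not tested.

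Among the Abcb genes, Abcb1a rose. Abcb1a and Abcb1b encode the rodent P-glycoproteins, which export many lipophilic drugs, and lie next to each other on chromosome 5. Abcb1a read 8.61, 8.63, 8.79 and 8.55 on the mutant-labelled arrays and 8.23, 8.46, 7.83 and 7.73 on the control-labelled ones. The groups did not overlap, and the control-labelled arrays spread more (SD 0.342, against 0.0991). The gene was 1.50-fold higher (log2 difference 0.58, limma adjusted p = 0.0400). The call ended without any 1 of the 4 mutant arrays or of control arrays 1, 3 and 4 (limma adjusted p from 0.0564 to 0.115), and with array weights (0.0645). Abcb1b read 9.75, 10.05, 10.04 and 9.28 against 9.73, 10.36, 8.86 and 8.71, with wide overlap (log2 difference 0.37, 95% interval from -0.38 to 1.12; the difference was 0.13 without control array 4 and 0.68 without control array 2). Abcb4, the phospholipid exporter gene next to them, read 6.66 ± 0.105 against 6.69 ± 0.130 (SD, n = 4 each). Of the 4 measured genes for mitochondrial and lysosomal Abcb proteins 0 were called by limma and 1 had an unadjusted p under 0.05: Abcb6, a porphyrin transporter gene, at 9.21 ± 0.0573 against 9.33 ± 0.0362 (SD, n = 4 each; log2 difference -0.12, limma adjusted p = 0.203). Abcb5 was the only member with 2 single-gene probe sets, which had log2 differences of -0.02 and 0.06.

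Among the Abcc genes, Abcc6 rose. Its product is a membrane protein of liver and proximal tubule whose loss leads to mineral deposits in soft tissue. Abcc6 read 8.28, 8.49, 8.43 and 8.31 on the mutant-labelled arrays and 7.99, 8.04, 8.06 and 8.01 on the control-labelled ones. The control-labelled arrays lay within a narrow band, wholly below the others, and the gene was 1.28-fold higher (log2 difference 0.35, limma adjusted p = 0.00650). Abcc2 (MRP2) and Abcc4 (MRP4), apical exporters of conjugates and organic anions, read 11.03 ± 0.307 against 10.65 ± 0.300 and 9.89 ± 0.137 against 9.73 ± 0.170 (SD, n = 4 each), and neither passed (limma adjusted p = 0.225 for Abcc2 and 0.367 for Abcc4). Abcc3 (MRP3), an exporter of the basolateral membrane, had the largest difference of the family (0.46) with overlapping groups (limma adjusted p = 0.219). It passed without mutant arrays 3 and 4 together (0.0354, log2 difference 0.76), and its difference was 0.16 without mutant arrays 1 and 2. The sulphonylurea receptor genes Abcc8 and Abcc9, subunits of ATP-sensitive potassium channels, had differences of 0.16 and -0.13 and did not pass.

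Among the Abcg genes, Abcg1 fell. It encodes an exporter of cellular cholesterol that macrophages and endothelial cells also use. Abcg1 read 8.64, 8.34, 8.18 and 8.41 on the mutant-labelled arrays and 8.60, 8.93, 8.83 and 8.76 on the control-labelled ones, so that mutant array 1 lay above control array 1. It was 1.31-fold lower (log2 difference -0.39, limma adjusted p = 0.0471), and it did not pass with the replicate number as a block (0.0929), after quantile normalization (0.0656), or without any one of mutant arrays 2, 3 and 4, or control array 2, 3 or 4 (0.0780 to 0.131). Endothelial markers had the same direction between the groups: all 9 on the list were called lower in the mutant-labelled arrays, beside 4.64% of all genes. Among them was Tie1, an endothelial receptor gene (9.20 ± 0.106 against 9.95 ± 0.112, SD, n = 4 each). The array means of the 9 markers were 9.97 to 10.08 in the mutant-labelled arrays and 10.63 to 10.81 in the control-labelled ones. Of 7 immune cell markers 0 passed limma (beside 7.23% of all genes), and 1 had an unadjusted p under 0.05 (14.3%, beside 21.8% of all genes). This was the macrophage marker Cd68, which passed with the replicate block (log2 difference -0.24, limma adjusted p = 0.0334). Over the 7 markers 5 differences were negative and 2 positive. Csf1r and Adgre1, of the same list, had log2 differences of 0.14 and -0.10 and did not pass. The array means of the 7 immune cell markers were 7.64 to 8.12 in the mutant-labelled arrays and 7.87 to 8.10 in the control-labelled ones. The part of these cells in the reading of Abcg1 was not tested, and in whole-kidney RNA fewer cells of a type and less RNA per cell cannot be told apart. Abcg2, the breast cancer resistance protein that exports urate and drugs at the apical membrane, read 10.70 ± 0.0795 against 10.67 ± 0.0992 (SD, n = 4 each), with a 95% interval of the log2 difference from -0.12 to 0.17. The sterol exporter genes Abcg5 and Abcg8, adjacent on chromosome 17, had differences of 0.04 and 0.18, and neither passed.

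The markers of the tubule segments that hold most of these carriers were read beside them. Of 10 proximal tubule markers 1 was called higher and 9 did not pass. This count is near the 7.23% of all genes called. The called gene was Slc5a1, a sodium-glucose cotransporter gene of the late proximal tubule. It read 10.47 ± 0.0235 against 10.05 ± 0.105 (SD, n = 4 each), with a limma adjusted p of 0.00312. The median log2 difference of the list was 0.02, beside 0.03 over all genes. Its array means were 11.52 to 11.82 in the mutant-labelled arrays and 11.60 to 11.69 in the control-labelled ones. Lrp2, Cubn and Slc34a1 had log2 differences of -0.06, 0.09 and 0.15. Over the whole list 5 differences were positive and 5 negative. The widest uncalled ones were 0.42 for Slc5a2 and -0.41 for Slc7a13 (limma adjusted p = 0.207 and 0.383). Slc5a2 passed without mutant array 1 (limma adjusted p = 0.0155). Of 6 markers of the thick limb and distal tubule, Calb1 and Kcnj1 rose (log2 differences 0.54 and 0.32; 33.3% called, beside 7.23% of all genes). The array means of the 6 were 12.41 to 12.55 against 12.17 to 12.33. With the replicate block Slc12a1 and Slc12a3, of the same list, passed too (log2 differences 0.25 and 0.24, limma adjusted p = 0.0456 and 0.0341). With the block 4 of the 6 were called, beside 8.31% of all genes. All 3 measured cycling cell markers fell (beside 4.64% of all genes called lower), with array means of 6.91 to 7.58 against 7.85 to 8.18. The part of cell composition in the transporter differences was not tested.

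Other carriers of organic solutes, on a list drawn up beside the families, were read the same way. Of 28 genes 4 rose, 1 fell and 23 did not pass (17.9% called, beside 7.23% of all genes). With the replicate block 7 of the 28 were called, beside 8.31% of all genes. Slc13a2 was lost, and Slc2a9, Slc10a1 and Slc10a6 were gained. The Slc10a genes had negative log2 differences (-0.35 and -0.32, limma adjusted p = 0.0295 and 0.0216). Slc13a3 encodes the sodium-dicarboxylate carrier NaDC3, which loads the proximal tubule cell with the dicarboxylates that OAT1 and OAT3 exchange for organic anions. It read 12.62, 12.93, 12.81 and 12.71 on the mutant-labelled arrays and 12.35, 12.29, 12.02 and 12.19 on the control-labelled ones, without overlap (1.47-fold higher, limma adjusted p = 0.00485). Slc13a2, the apical citrate carrier NaDC1, was 1.55-fold higher (limma adjusted p = 0.0199), but not with the replicate block (0.0513) or without mutant array 2 or control array 2 or 3 (0.0604 to 0.0638). Slc16a9, a monocarboxylate carrier family gene, rose 1.40-fold and Slc51a, the alpha subunit of the basolateral bile acid and steroid exporter, 1.50-fold (limma adjusted p = 0.00422 and 0.00842). Slc16a9 did not pass on the mean of its probe sets (log2 difference 0.23, limma adjusted p = 0.0661). The subunit partner Slc51b did not pass. Slc17a4, an organic anion and urate carrier gene, fell most: it read 7.42, 7.44, 6.98 and 7.27 on the mutant-labelled arrays and 8.98, 9.20, 9.13 and 8.40 on the control-labelled ones, and was 3.14-fold lower (limma adjusted p = 0.000543). Its relatives Slc17a1, Slc17a2 and Slc17a3 had differences of -0.07, 0.23 and -0.09, and did not pass. Slc2a9, the main basolateral urate carrier gene, had a difference of 0.29 and did not pass (limma adjusted p = 0.0709), though it did with the replicate block (0.0395) and without control array 1 (0.0428).

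**Figure D5:**
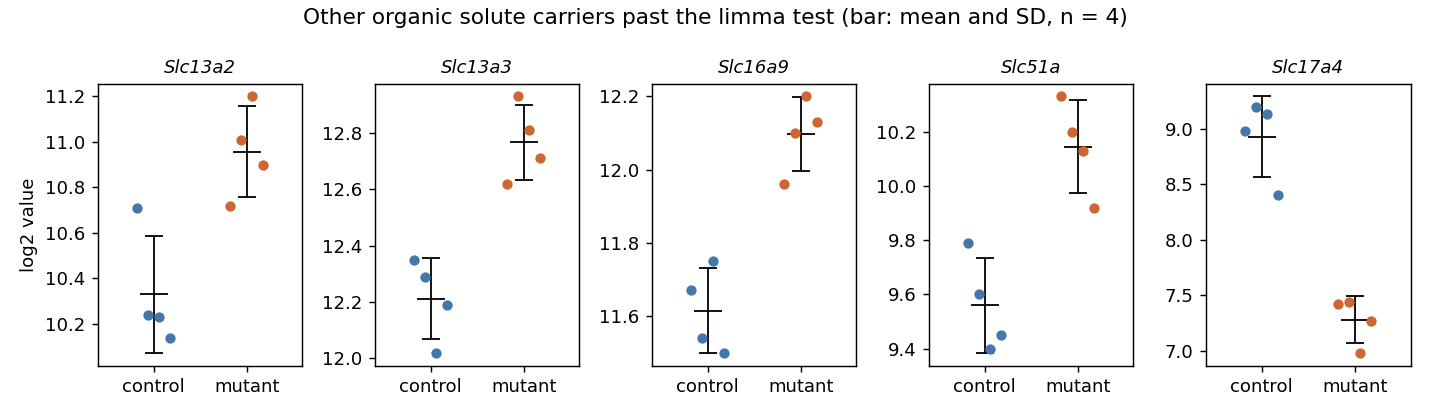
Log2 values (y axis; each panel has its own range, which does not start at 0) of the 5 called genes among 28 other organic solute carriers on each array labelled control or mutant, with the mean and SD of each group (n = 4). Slc13a2, Slc13a3, Slc16a9 and Slc51a lie higher in the mutant-labelled arrays, and Slc17a4 lies lower with no array shared between the ranges.

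Of 15 measured genes for transcription factors known to act on transporter genes, 1 rose and 2 fell. Over all genes 2.59% were called higher and 4.64% lower. With the replicate block 2 of the 15 were called, beside 8.31% of all genes. Hif1a rose 1.51-fold (11.32 ± 0.0976 against 10.72 ± 0.213) and Epas1, which encodes HIF-2 alpha, fell 1.29-fold (11.62 ± 0.0304 against 11.99 ± 0.113; SD, n = 4 each; limma adjusted p = 0.00660 for both). Ahr, the aryl hydrocarbon receptor that induces drug transporters and metabolizing enzymes, fell 1.20-fold (limma adjusted p = 0.0384), but not with the replicate block (0.0726) or without any one of mutant arrays 1, 2 and 3, or control array 1, 2 or 3 (0.0830 to 0.111). Hnf4a, a main regulator of proximal tubule carriers, read 12.63 ± 0.0919 against 12.59 ± 0.112 (SD, n = 4 each), not past the threshold.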

How the data were processed

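The authors' deposited table holds log2 values for 35556 probe sets on 8 arrays; the submitters' processing notes name limma, and the sources used here give no background correction, summarization, normalization or genome build. Probe sets were named from the platform annotation, updated through the GRCm38.p6 gene table: 21789 named 1 gene (21701 of these matched a current gene), 1621 several and 12146 were not listed. Each gene took its probe set of highest mean. Nothing was filtered or renormalized, and the table gives no background reading.

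The test was limma's (version 3.58.1, R 4.3.3; lmFit and eBayes on the labelled group, 8 arrays, two-sided, Benjamini-Hochberg over 19936 genes, calls under 0.05). Single values were also tested by exact permutation. Members, lists and alternatives were chosen with earlier results of these data known. Named were all called members, the largest difference of each family or role list without a call, well-known kidney carriers, and the called genes of the 2 companion lists; the other members named were chosen after their values were seen.

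Deviations from the group means correlated between same-numbered arrays at 0.138, 0.153, 0.295 and 0.175. Between arrays of different numbers they ran from -0.193 to 0.111 (mutant array 2 with control array 1). The arrays were therefore treated as paired by number in the block, a pairing that rests on the data alone. The labels name no pairs, so results by pair or block hold only under this pairing. The fit was tested on simulated data for this comparison over 19936 genes: 78% of changes of 0.5 and 98% of changes of 1 (log2) were called, with 10 false among 186 calls. Only 200 genes were changed there, with noise drawn independently for each gene and array. The deposited data had 1442 calls and correlated same-numbered arrays, so these rates need not hold for them.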

Additional observations from a re-analysis of the deposited data

Results flagged for a closer look

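In 7 of the 128 groups of 4 arrays (64 members, 2 labelled groups) a single array stood apart from the other 3, its gap to the nearest exceeding Dixon's 95% critical share of the group's range. Chance alone sets apart about 1 group in 20. Mutant array 2 was high for Slc22a27, at 7.80 with the others between 7.35 and 7.40, and for Abcg3, a rodent relative of Abcg2, at 6.05 with the others between 5.67 and 5.73. Mutant array 1 was high for Slc22a19, at 12.91 with the others between 12.83 and 12.84. Mutant array 3 was low for Abcc8, at 7.17 with the others between 7.38 and 7.42. Control array 1 was high for Slc22a13b, at 8.31 with the others between 8.23 and 8.25. Control array 4 was low for Abcb9, a lysosomal peptide transporter gene, at 7.66 with the others between 7.80 and 7.81. Control array 3 was low for Slco5a1, at 5.93 with the others between 6.31 and 6.34. In most of these the gap was small on the log2 scale, and what set the arrays apart was not tested.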

How the results depend on the processing

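Slc22a13, Slc22a23 and Abcc6 were called in every alternative fit at the threshold of 0.05; the other 9 called genes each lost the call in at least 1. Against 10 members called higher, 5 were called without mutant arrays 1 and 2 together, 3 at an adjusted p under 0.01, and 6 to 8 when 1 array was left out, with 6 without mutant array 2 and 6 without control array 3. Against 2 called lower, 4 were called with array weights and 4 with the upper 60% of probe sets (45 members tested); 1 was called after quantile normalization and 1 with the replicate block, 0 without mutant arrays 3 and 4 together, 0 at an adjusted p under 0.01, and 0 to 3 when 1 array was left out. Pairing by the replicate block lost Abcg1 and gained Slco1a6, and changed no other member's call. The Abcc median fell to 0.04 without mutant arrays 1 and 2 together. The other family medians moved by less than the spread between arrays. Direction changed for the following genes, each of them uncalled. Slc22a2 turned to 0.06 and Slc17a1 to 0.02 after quantile normalization, Slco2b1 to -0.01 with array weights, and Abcb5 to 0.02 on the mean of its probe sets. Without mutant arrays 1 and 2, Slc22a2 turned to 0.05, Slco4c1 and Slc22a14 to 0.17, Slc47a2 to -0.03, Slco2b1 to -0.05 and Slc17a1 to 0.01. Without mutant arrays 3 and 4, Abcg2 turned to 0.00, Abcb4 to 0.01, Abcb5 to 0.02 and Hnf4a to -0.03. With 1 array left out, Slc22a2 ran from -0.07 to 0.05, Abcg2 from -0.02 to 0.06, Slc47a1 from -0.01 to 0.04, Slc47a2 from -0.01 to 0.06, Slco2b1 from -0.01 to 0.14, Abcb4 from -0.08 to 0.03, Abcb5 from -0.06 to 0.01, Slc22a14 from -0.18 to 0.07 and Hnf4a from 0.00 to 0.09. Over the 44 members and 24 other genes refitted, these were 27 of 1215 gene and setting pairs. Leaving out arrays tests fewer samples; other causes were not tested. No background reading was given, so the depth of signal limits the 10 members with both means below the lowest lower quartile.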
